A study of Mus musculus with 16 samples.

Results

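The nuclear-encoded subunits of the oxidative phosphorylation machinery were followed across *Acta2-tdT* and *Pdgfra-tdT* cells sorted from mouse lungs after saline or bleomycin. Members were the nuclear protein-coding genes whose symbol names a subunit of complex I (*Nduf* genes of the a, b, c, s and v series), complex II (*Sdha* to *Sdhd*), complex III (*Uqcr* genes), complex IV (*Cox4* to *Cox8* genes) or complex V (*Atp5* genes), with *Cox4i2* and *Ndufa4l2* kept aside. The rule used names, not measured values, and found 82 of 49452 genes, which are 82 of 21961 nuclear protein-coding genes. Complex I held 37 of them, complex II 4, complex III 8, complex IV 16 and complex V 15, and *Atp5s* and *Atp5sl* matched the name rule but were counted apart. The main isoform of subunit 4 of complex IV was not analysed here.

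Oxidative phosphorylation couples the oxidation of NADH and succinate to the synthesis of ATP at the inner mitochondrial membrane. Complex I and complex II feed electrons to ubiquinone, complex III passes them to cytochrome c, complex IV hands them to oxygen, and complex V uses the proton gradient so built to make ATP. Most subunits are encoded in the nucleus, a few catalytic ones on mitochondrial DNA, and the assembled complexes need both.

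The 4 groups compared held 4 mice each, 16 in all, on a C57BL6 background, at 11 weeks of age and 14 days after intratracheal saline or bleomycin, an agent that causes lung fibrosis. *Acta2-CreERT2; tdTomatoflox* mice carried a tamoxifen-activated Cre under the promoter of *Acta2*, the gene of α-smooth muscle actin, and received tamoxifen in food at 400 mg/kg from day 5 after instillation. *Pdgfra-CreERT2; tdTomatoflox* mice carried it under the promoter of *Pdgfra*, a growth factor receptor gene of lung fibroblasts, and received 5 injections of 3 mg tamoxifen at 6 weeks of age. tdTomato+ cells were sorted by flow cytometry and their RNA was amplified from low input by SmartSeq2. The line and its tamoxifen schedule cannot be told apart, and a lineage label also marks cells that have since lost the driver gene. Each library came from many cells, so fewer cells of a type and less RNA per cell cannot be told apart either.

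Levels are FPKM, fragments per kilobase of transcript scaled to the mapped fragments of the library. The files held no counts, and depth could only be estimated, from the width of the deposited confidence bounds. That estimate was 1186360 to 2089117 fragments in *Acta2-tdT* saline mice and 4713775 to 8271131 in *Acta2-tdT* bleomycin mice, without overlap, so that depth cannot be told apart from treatment there. It was 1333134 to 1839253 in *Pdgfra-tdT* saline mice and 530074 to 3212821 in *Pdgfra-tdT* bleomycin mice. FPKM summed over nuclear protein-coding genes ran from 29727 to 61168 in 11 of 16 mice, but from 241916 to 466183 in the 4 *Acta2-tdT* bleomycin mice and to 147467 in *Pdgfra-tdT* bleomycin mouse 5. Members are therefore given as deposited and also as scaled FPKM, in which every mouse was brought to the same nuclear protein-coding sum of 51979, the median of the 16 mice. *Acta2* separated the lines, at 191 to 358 scaled FPKM in *Acta2-tdT* mice against 0.794 to 15.8 in *Pdgfra-tdT* mice. *Pdgfra* itself was low throughout, with 3.08 to 5.24 in *Pdgfra-tdT* saline mice, 0.864 to 2.38 in *Pdgfra-tdT* bleomycin mice and 0.323 to 1.33 in *Acta2-tdT* mice. As deposited, it went against the label after bleomycin, at 2.49 to 11.9 FPKM in *Acta2-tdT* mice and 0.977 to 2.45 in *Pdgfra-tdT* mice. *Col1a1*, the collagen gene that defines active fibroblasts, was between 0.518 and 5.25 scaled FPKM in *Pdgfra-tdT* mice and between 0.296 and 13.3 as deposited, and *Tcf21*, a lung fibroblast transcription factor gene, was listed at 0 in all 4 *Pdgfra-tdT* bleomycin mice. The 9 fibroblast genes listed summed to 13.6, 13.8, 49.4 and 23.4 scaled FPKM in *Pdgfra-tdT* saline mice 1 to 4 and to 65.3 in bleomycin mouse 5 and 4.56 to 20.0 in mice 6 to 8, against 29.4 to 39.1 in *Acta2-tdT* saline mice and 245 to 379 in *Acta2-tdT* bleomycin mice. Saline mouse 3 and bleomycin mouse 5 thus lay above the *Acta2-tdT* saline mice and the other 6 below them. *Pdgfra-tdT* here names the libraries by their label. Whether they hold cells of that lineage was not settled.

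A set of 4 *Pdgfra-tdT* libraries stood apart in their members. Saline mice 1, 2 and 4 and bleomycin mouse 8 had 50 to 59 of the 82 members at 1 FPKM or more, and the other 12 mice had 74 to 79. The median of the 74 members that are in use in most tissues was 1.43 to 2.05 FPKM in these 4 libraries. In these libraries only 9 to 31 of those 74 members lay above the highest of *Cox8b*, *Cox7b2* and *Cox8c*, tissue-restricted complex IV isoforms, against 53 to 74 elsewhere. Other genes were low there too. Cytosolic ribosomal proteins made up 0.959% to 1.19% of nuclear protein-coding FPKM in these libraries and 3.12% to 9.36% in the other 12 mice. For enzymes of the TCA cycle this was 0.0169% to 0.0241% against 0.0655% to 0.199%. Genes at 1 FPKM or more numbered 6997 to 7424 against 8232 to 13574. The medians and most counts of calls that rest on these libraries are given with and without them. These libraries were picked for their low members, so that their low member values follow from that choice. Leaving them out raises the members of their group by choice.

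The summed share of the members was highest in *Acta2-tdT* bleomycin mice as a group. It was lowest in the libraries that stood apart, which follows from their being picked for low members. In *Acta2-tdT* saline mice 1 to 4 the members made up 2.55%, 2.93%, 3.48% and 2.77% of nuclear protein-coding FPKM (2.93% ± 0.394, SD, n = 4). In *Acta2-tdT* bleomycin mice 5 to 8 they made up 4.47%, 3.53%, 3.71% and 3.79% (3.87% ± 0.411, SD, n = 4). The *Acta2-tdT* groups did not overlap, and the lowest bleomycin mouse lay just above the highest saline mouse. *Pdgfra-tdT* saline mice gave 0.647%, 0.470%, 2.86% and 0.510% (1.12% ± 1.16, SD, n = 4). *Pdgfra-tdT* bleomycin mice gave 4.11%, 3.01%, 2.11% and 0.610% (2.46% ± 1.48, SD, n = 4). The *Pdgfra-tdT* groups overlapped, and their difference of 1.34 percentage points was smaller than the SD of the bleomycin mice. Without the libraries that stood apart, *Pdgfra-tdT* bleomycin mice 5 to 7 averaged 3.08% ± 1.0 (SD, n = 3), beside 2.86% in saline mouse 3. When the 100 genes with the highest levels were left out of the sum, the *Acta2-tdT* difference of 0.942 percentage points shrank to 0.197.

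**Figure D1:**
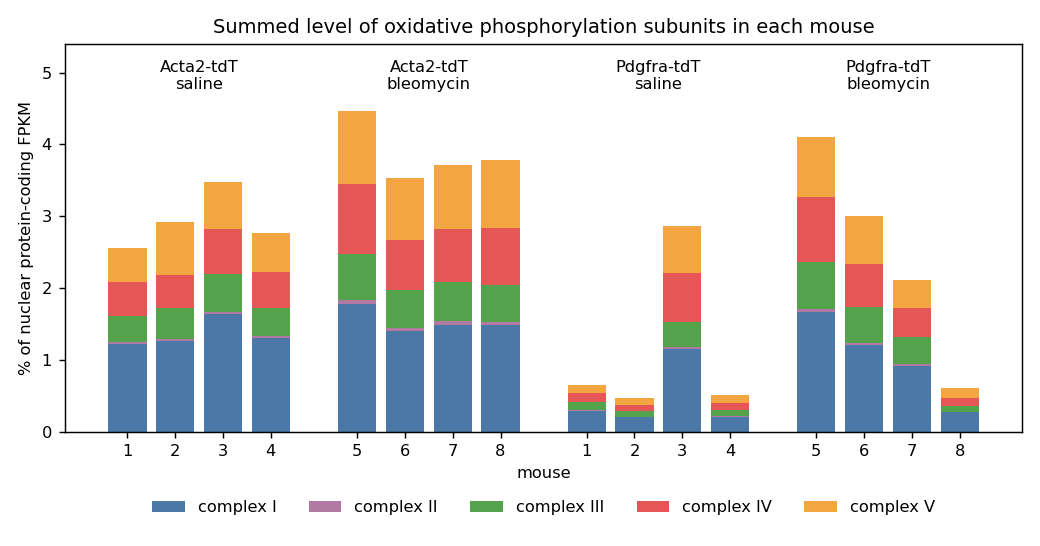
Summed FPKM of the nuclear-encoded subunits as a percentage of nuclear protein-coding FPKM (vertical axis) in each of the 16 mice (horizontal axis), with colours for complexes I to V; *Atp5s* and *Atp5sl* are not drawn. *Acta2-tdT* bleomycin mice sit between 3.53% and 4.47%, all above the *Acta2-tdT* saline mice, and *Pdgfra-tdT* saline mice 1, 2 and 4 and bleomycin mouse 8 sit at 0.470% to 0.647%.

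The order of the members among themselves was alike in every group. Spearman's correlation of their mean scaled levels was 0.90 to 0.95 for the 6 pairs of groups over the 82 members, and 0.862 to 0.951 without the libraries that stood apart, a description over genes that share libraries and transcript lengths. The 10 highest members held 36.2% of the member sum in *Acta2-tdT* saline mice and 32.3% in *Acta2-tdT* bleomycin mice. In *Acta2-tdT* saline mice *Ndufa5*, an accessory subunit of complex I, had the highest mean at 71.9 scaled FPKM, followed by *Uqcr10* of complex III at 63.9 and *Ndufb9* of complex I at 60.7. In *Acta2-tdT* bleomycin mice *Uqcrq* of complex III led with 85.5, followed by *Cox6b1* with 77.9 and *Cox8a* with 74.4, both accessory subunits of complex IV. Neighbours in this order lay within the spread between mice, as *Ndufa5* with an SD of 17.7 and *Uqcrq* with an SD of 12.6 show. *Ndufa2*, an accessory subunit of complex I, was next in *Acta2-tdT* saline mice at 42.8, 60.8, 79.6 and 47.3, and it was at 53.7 to 71.6 with bleomycin. *Atp5j2*, the small f subunit of complex V, was at 27.3 to 55.1 with saline and at 28.6 to 36.7 with bleomycin, so that both overlapped. At the other end, the muscle-type isoforms *Cox6a2*, *Cox7a1* and *Cox8b* and the gene *Atp5s* were listed at 0 in many mice.

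The first comparison asked how the members of *Acta2-tdT* cells changed with bleomycin. As deposited, nearly every member rose together with most other genes. limma with Benjamini-Hochberg adjustment over all tested genes called 77 of 79 tested members higher, against 70.4% of all 12523 tested genes, and 2 lower, against 16.3%. The median log2 difference was 3.25 over the members and 1.76 over all tested genes. *Atp5s*, *Cox6a2* and *Cox8b* did not pass the filter of 1 FPKM in 4 of 8 mice, and since a member high in a single group passes through that group, the counts describe only the members tested. On the scaled values 29 of the 79 members rose, against 24.5% of all tested genes, and 3 fell, against 32.5%. The median log2 difference was 0.40 over the members and -0.01 over all tested genes. Of the 29 members that rose, 7 belonged to complex I.

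By complex, 9 of 15 tested members of complex V, 4 of 8 of complex III, 3 of 4 of complex II, 6 of 14 of complex IV and 7 of 37 of complex I rose on the scaled values. Of all tested genes 24.5% rose, a share that complex I stayed below. The median log2 differences by complex were 0.85, 0.59, 0.78, 0.55 and 0.30 in that order. The falls were *Cox8c* and *Cox7b2* of complex IV and *Ndufab1* of complex I. Groups that did not overlap were found for 32 members upwards and 3 downwards, where 22% and 29.5% of all tested genes were apart in those directions. With the 100 highest genes left out of the sum, 7 members rose and 4 fell. With all 16 mice in 1 fit 1 rose and 2 fell. Both settings gave fewer calls than the comparison itself, and the other settings are not listed here. In these fits 52.4% and 39.6% of all tested genes were called in either direction, against 56.9% in the comparison itself.

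**Figure D2:**
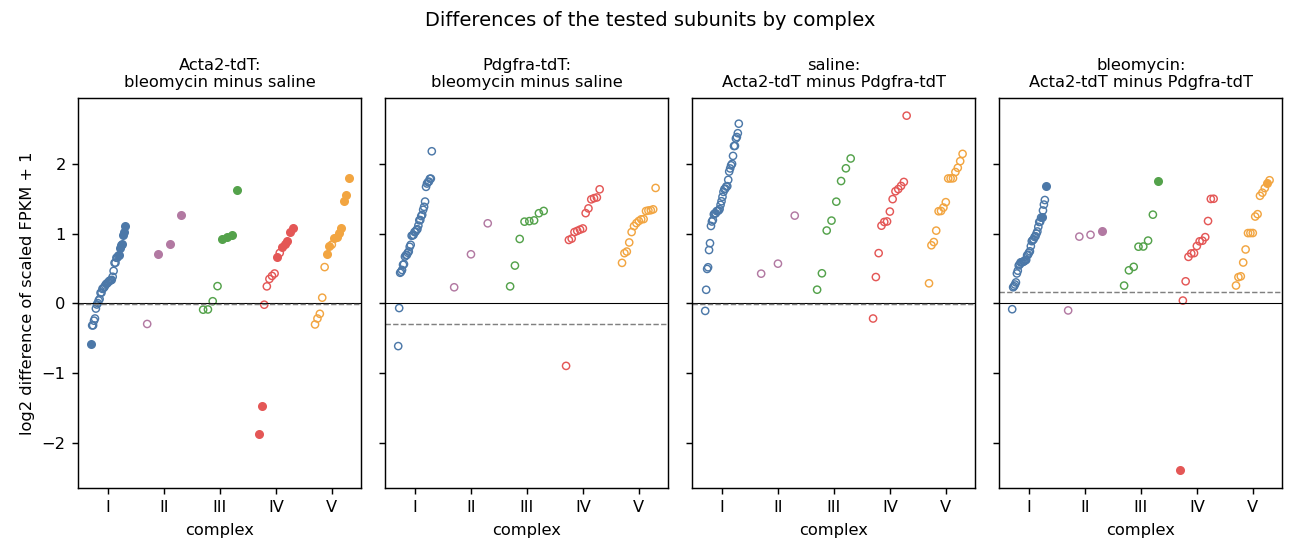
Log2 difference of scaled FPKM + 1 (vertical axis) for every tested member, sorted within complexes I to V (horizontal axis), in the 4 comparisons of 2 groups; filled points had an adjusted p under 0.05 (limma), and the dashed line is the median of all tested genes. In *Acta2-tdT* cells the filled points lie mostly above 0 with *Cox8c* at -1.88 and *Cox7b2* at -1.48 far below, and in *Pdgfra-tdT* cells no point is filled.

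Both large subunits of the catalytic head of complex V were among the 3 largest rises. *Atp5b* (ENSMUSG00000025393, chr10:128083273-128090391, GRCm38) encodes the catalytic β subunit of the F1 head. It was at 10.5, 13.1, 14.9 and 21.9 scaled FPKM in the saline mice and at 47.9, 45.7, 55.4 and 66.9 in the bleomycin mice. Every bleomycin mouse lay above every saline mouse, by a log2 difference of 1.80 ± 0.30 (SE, adjusted p = 6.68e-04, limma). *Atp5a1*, which encodes the α subunit of the same head, was at 9.11, 9.70, 10.7 and 17.2 with saline and at 30.0, 33.3, 39.1 and 39.4 with bleomycin. Its log2 difference was 1.55 ± 0.28 (SE, adjusted p = 0.00109), again without overlap (limma). *Atp5d* and *Atp5c1*, the δ and γ subunits of the central stalk, rose as well, *Atp5d* by 1.08.

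The membrane part of complex V did not move as a block. *Atp5g1*, *Atp5g2* and *Atp5g3* encode the identical mature subunit c of the rotor ring from different precursors. *Atp5g1* was at 4.60, 8.35, 6.21 and 8.23 with saline and at 23.9, 17.0, 19.7 and 21.7 with bleomycin, 1.48 log2 units higher (adjusted p = 9.43e-04). *Atp5g3* rose by 0.94, and *Atp5g2* did not pass the test. Within a mouse *Atp5g1* made up 26.4% ± 5.98 (SD, n = 4) of the 3 genes with saline and 35.2% ± 1.56 with bleomycin, with 1 saline mouse at 33.7% inside the bleomycin range, and *Atp5g3* remained the largest at 58.1%. *Atp5f1*, the b subunit of the peripheral stalk, rose by 1.02. *Atp5k*, the small e subunit of the membrane part, was at 41.7, 95.0, 51.2 and 39.5 with saline and at 76.1, 52.1, 47.8 and 53.6 with bleomycin. These values overlapped widely, with a log2 difference of 0.08 (adjusted p = 0.850) that took the other sign under 2 other scalings and in 3 fits that left out a mouse.

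In complex III the 2 core subunits and the iron-sulfur protein rose, and several small subunits did not. *Uqcrc1* (ENSMUSG00000025651, chr9) encodes core protein 1. It was at 7.29, 4.19, 5.79 and 11.6 with saline and at 22.4, 19.9, 24.8 and 26.3 with bleomycin. All bleomycin mice were higher, by a log2 difference of 1.63 ± 0.31 (SE, adjusted p = 0.00139). *Uqcrc2*, core protein 2, rose by 0.95, *Uqcrfs1*, the Rieske iron-sulfur protein, by 0.93 and *Uqcrq*, the ubiquinone-binding small subunit, by 0.99. The call on *Uqcrfs1* held in 8 of 17 alternative settings. *Uqcr10*, a small subunit at 53.3 to 70.7 with saline and at 48.1 to 73.5 with bleomycin, had a log2 difference of -0.09 (adjusted p = 0.805), positive under an upper-quartile scaling and without bleomycin mouse 8.

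Complex II, the succinate dehydrogenase, held the smallest part of the member sum. *Sdhb*, its iron-sulfur subunit, was at 1.13, 2.96, 2.84 and 4.77 scaled FPKM with saline and at 9.12, 7.74, 7.89 and 6.93 with bleomycin. The groups did not overlap and differed by 1.27 ± 0.30 on the log2 scale (SE, adjusted p = 0.00498). *Sdhc*, a membrane anchor, rose by 0.85 and *Sdha*, the flavoprotein that holds the catalytic site, by 0.71. *Sdhd*, the other anchor, was at 0.550 to 1.66 with saline and at 0.178 to 1.06 with bleomycin and did not pass the test.

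Complex IV held rises of widely used subunits beside the falls of *Cox7b2* and *Cox8c*, isoforms known from testis. *Cox6b2*, another tissue-restricted isoform, did not fall with them. It was at 1.81 to 5.63 scaled FPKM with saline and at 3.65 to 6.03 with bleomycin. Within a mouse it made up 7.35% ± 4.02 (SD, n = 4) of *Cox6b1* and *Cox6b2* with saline and 5.91% ± 1.98 with bleomycin, with overlap. *Cox5a*, a subunit on the matrix side, rose by 1.08, *Cox7a2* by 1.03, *Cox6a1* by 0.90 and *Cox8a* by 0.81, all accessory subunits in their liver-type or ubiquitous form. *Cox6b1*, which faces the intermembrane space, was at 38.7, 57.5, 53.9 and 37.5 with saline and at 98.8, 62.0, 73.6 and 77.2 with bleomycin. These groups did not overlap, but the difference of 0.73 missed the threshold (adjusted p = 0.0596). The calls on *Cox6a1* and *Cox8a* held in 9 and 8 of 17 alternative settings.

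*Cox7b2* (chr5:71442824-71548205), the testis-type counterpart of *Cox7b*, was at 1.48, 2.85, 1.32 and 2.16 scaled FPKM with saline and at 0.0265, 0, 0.0824 and 0.0550 with bleomycin. Every bleomycin mouse was below every saline mouse, by -1.48 ± 0.17 on the log2 scale (SE, adjusted p = 5.64e-05). *Cox8c* (chr12:102899306-102900534), the testis-type form of subunit 8, was at 5.72, 0.883, 5.94 and 1.72 with saline. It was listed at 0 in 3 bleomycin mice and was at 0.305 in mouse 8, a log2 difference of -1.88 ± 0.40 (SE, adjusted p = 0.00296). Within a mouse, *Cox7b2* made up 24.4% ± 7.72 (SD, n = 4) of *Cox7b* and *Cox7b2* together with saline and 0.404% ± 0.359 with bleomycin, while *Cox7b* itself rose. *Cox7a2l* made up 37.3% ± 9.31 (SD, n = 4) of *Cox7a2* and *Cox7a2l* with saline and 28.6% ± 9.01 with bleomycin, a difference within the spread between mice. The 1443 olfactory and vomeronasal receptor genes, which are not known from lung cells, moved in the same direction. Their median was 0.323 to 0.332 FPKM as deposited in the saline mice and 0.0134 to 0.122 in the bleomycin mice. With that median subtracted from every gene, 23 members rose and 3 fell, where 65.8% of all tested genes were called in either direction. The part of this background in the falls of both isoforms was not tested. *Cox7b2* passed the filter only through the saline mice, where it was high, and *Cox8c* through 3 saline mice and bleomycin mouse 8.

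**Figure D3:**
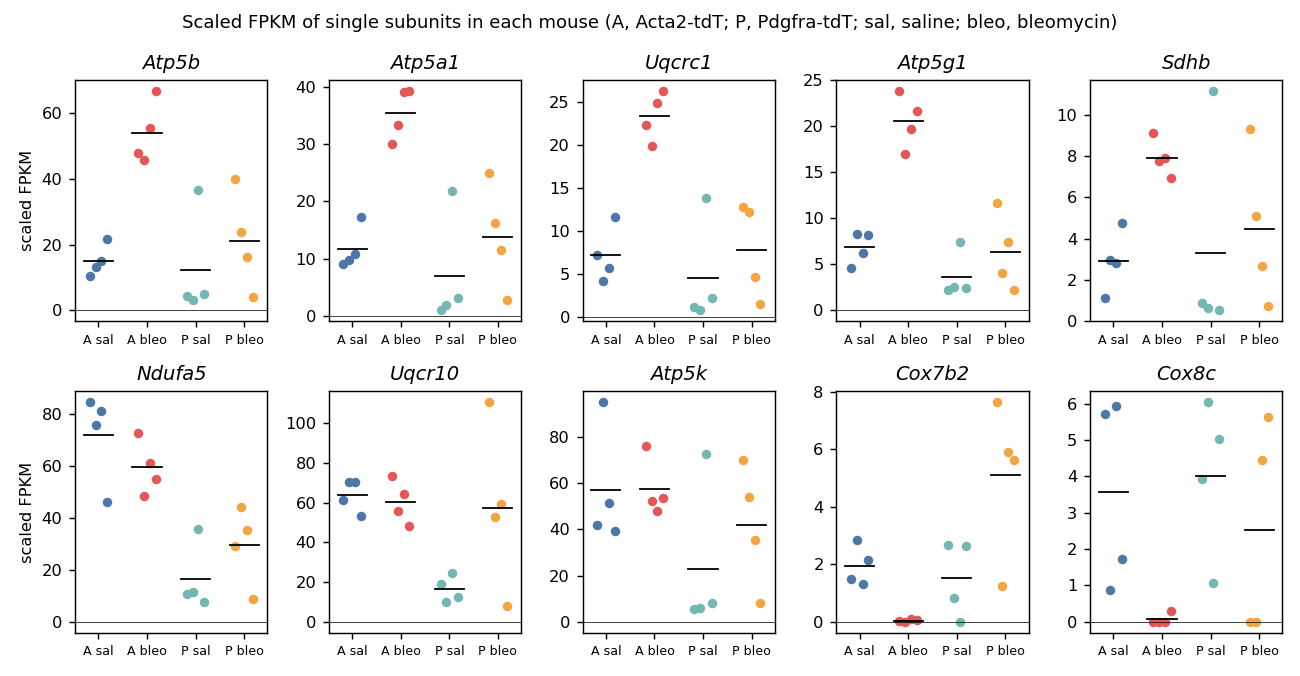
Scaled FPKM (vertical axes, each from 0) of 10 subunits in each mouse, with the 4 groups on the horizontal axes; points are mice and lines are group means. *Atp5b*, *Atp5a1*, *Uqcrc1*, *Atp5g1* and *Sdhb* are higher in every *Acta2-tdT* bleomycin mouse than in every *Acta2-tdT* saline mouse, *Ndufa5*, *Uqcr10* and *Atp5k* overlap, and *Cox7b2* and *Cox8c* are at or near 0 in *Acta2-tdT* bleomycin mice.

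Complex I, the largest complex, had the lowest median difference. *Ndufb8*, an accessory subunit of the membrane arm, rose by 1.12 (adjusted p = 0.0191), *Ndufa10*, an accessory subunit, by 1.03 and *Ndufc2*, another membrane-arm subunit, by 0.98. Among the 7 core subunits, which include the flavin and iron-sulfur proteins, *Ndufv1*, the NADH-binding subunit, rose by 0.79, a call that held in 8 of 17 alternative settings. The median log2 difference was 0.66 over the 7 core subunits and 0.28 over the 30 others. Of these 30, 5 rose, where 24.5% of all tested genes rose, so that their share was below the background. *Ndufa5* was at 84.7, 75.8, 81.2 and 46.0 with saline and at 72.9, 48.7, 61.2 and 55.2 with bleomycin. The groups overlapped, with a log2 difference of -0.25 (adjusted p = 0.513), which turned positive under an upper-quartile scaling. *Ndufab1*, the acyl carrier protein that also serves mitochondrial fatty acid synthesis, was at 3.77, 3.65, 3.84 and 2.58 with saline and at 2.23, 1.99, 1.76 and 1.82 with bleomycin. All bleomycin mice lay below all saline mice, by -0.59 ± 0.17 on the log2 scale (SE, adjusted p = 0.0162). As deposited, *Ndufab1* was higher with bleomycin, at 9.28 to 16.3 FPKM against 2.57 to 3.66.

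The make-up of the member sum shifted between complexes in *Acta2-tdT* cells. Complex I made up 43.3% to 47.9% of the member sum with saline and 39.3% to 40.2% with bleomycin, without overlap. Complex IV made up 15.7% to 18.4% with saline and 20.0% to 21.9% with bleomycin, and complex II 0.629% to 0.902% and 0.945% to 1.34%, both again without overlap. Complex V, at 18.3% to 25.3% and 22.8% to 25.0%, and complex III, at 14.1% to 15.4% and 13.6% to 14.8%, overlapped. *Ndufa4* is counted with complex I by its symbol but is an accessory subunit of complex IV. With *Ndufa4* moved there, complex IV was 0.515% to 0.691% of nuclear protein-coding FPKM with saline and 0.763% to 1.08% with bleomycin. The paralogs kept aside behaved otherwise than most members. *Cox4i2*, the lung and hypoxia-associated isoform of subunit 4, was at 10.2 to 14.5 scaled FPKM with saline and at 0.493 to 1.30 with bleomycin. As deposited *Cox4i2* was at 7.46 to 17.0 FPKM with saline and at 3.56 to 6.04 with bleomycin. *Ndufa4l2*, a paralog of *Ndufa4* known from pericytes, made up 9.25% ± 0.849 (SD, n = 4) of the pair with saline and 1.01% ± 0.327 with bleomycin. As deposited *Ndufa4l2* overlapped, at 1.63 to 3.65 FPKM and 1.94 to 3.55, while *Ndufa4* went from 16.8 to 34.8 with saline to 135 to 322 with bleomycin.

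The size of the difference in *Acta2-tdT* cells went with transcript length. Members are short, with a median annotated length of 737 bases against 2326 over nuclear protein-coding genes, and 54 of 82 are under 1000 bases. The 52 tested members under 1000 bases had a median log2 difference of 0.27, and the 27 longer ones of 0.84. Spearman's correlation of length with the difference was 0.42 over the 79 tested members, 0.43 with the longest transcript of each gene and 0.37 with the coding length. Over the other 9112 nuclear protein-coding genes it had the other sign, -0.20. Over the members it was also negative in the comparison of the lines with saline, at -0.42, and in *Pdgfra-tdT* cells with bleomycin, at -0.34, and it was 0.25 between the lines with bleomycin. These are correlations across genes that share libraries, in comparisons that share groups, and are given as a description. Many short members have processed pseudogenes, and their FPKM are uncertain where reads were shared with these.

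**Figure D4:**
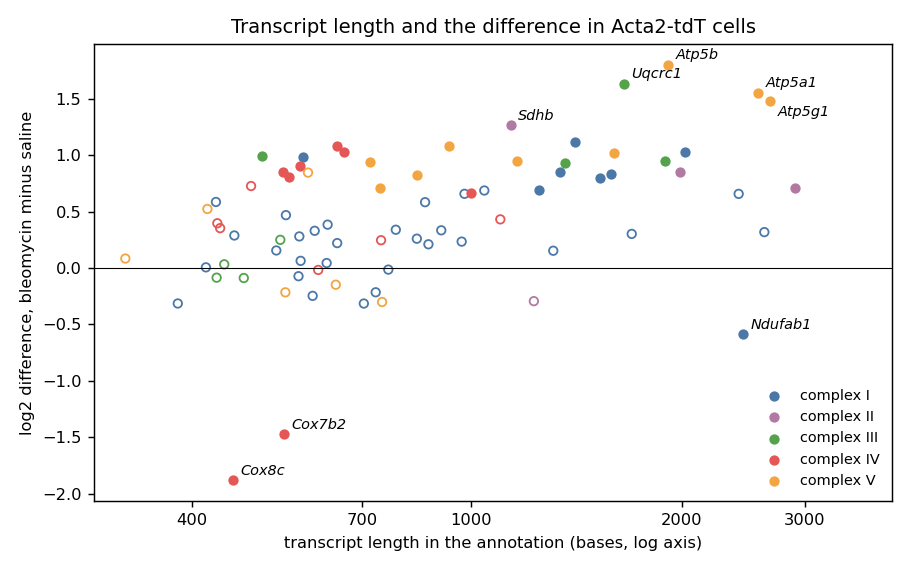
Log2 difference of bleomycin minus saline in *Acta2-tdT* cells (vertical axis, scaled FPKM + 1) against annotated transcript length in bases (horizontal log axis) for the tested members of complexes I to V; filled points had an adjusted p under 0.05 (limma). *Atp5b*, *Uqcrc1*, *Atp5a1* and *Atp5g1*, all over 1000 bases, have differences of 1.48 to 1.80, and the 2 lowest points, *Cox8c* and *Cox7b2*, are under 1000 bases.

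Promoters were read because the members moved together as deposited. RefSeq start sites on GRCm38.p6 were matched for 67 of 82 members, and the windows of 250 bases before and 50 after the start were searched on both strands for letters known from regulators of respiratory genes. GCATGCGC, the core of the NRF1 site, was in 10 of 67 member windows (14.9%) against 3.76% of 16167 nuclear protein-coding windows. CCGGAAG, an ETS-type site of the kind GABPA uses, was in 15 (22.4%) against 12.3%, and AAGATGGC, a YY1 site, in 8 (11.9%) against 3.25%. TGACGTCA, a CRE, was in 4 (5.97%) against 2.40%, GGGCGG, an SP1 site, in 27 (40.3%) against 48.3%, and TATAAA in 7 against 12.9%. Of the 10 tested members with the NRF1 letters 3 rose in *Acta2-tdT* cells on the scaled values, and of the 56 without them 20 rose, where 24.5% of all tested genes rose. Of the 15 with the ETS letters 3 rose, and of the 51 without them 20 rose, and for the YY1 letters these were 2 of 8 and 21 of 58. The stretches printed here are the 120 bases before the gene. They show the NRF1 letters in 2 complex I genes, the ETS letters in 2 complex III genes, and the genes of the largest rises, *Atp5b* and *Uqcrc1*, with no NRF1 or ETS letters in this stretch, which says only that these letters are not there. The longer window of *Uqcrc1* did hold the NRF1 letters. Capitals mark the NRF1 or ETS letters on either strand, which overlap in *Ndufa11*, and all stretches read 5′ to 3′ on the strand of the gene on GRCm38.p6, and a match is a description, not a site. *Ndufa11* lies at chr17:56717642-56717761 (+), *Ndufa6* at chr15:82354292-82354411 (-), *Uqcr11* at chr10:80406831-80406950 (-), *Uqcrh* at chr4:116075072-116075191 (-), *Atp5b* at chr10:128083153-128083272 (+) and *Uqcrc1* at chr9:108936513-108936632 (+).
Ndufa11: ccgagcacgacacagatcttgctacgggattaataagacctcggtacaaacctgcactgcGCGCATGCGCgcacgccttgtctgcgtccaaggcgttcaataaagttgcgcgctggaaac
Ndufa6: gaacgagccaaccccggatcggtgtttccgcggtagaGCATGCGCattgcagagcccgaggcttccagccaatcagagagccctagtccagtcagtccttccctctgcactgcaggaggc
Uqcr11: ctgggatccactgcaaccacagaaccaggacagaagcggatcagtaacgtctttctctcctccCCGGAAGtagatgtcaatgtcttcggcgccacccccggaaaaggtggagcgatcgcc
Uqcrh: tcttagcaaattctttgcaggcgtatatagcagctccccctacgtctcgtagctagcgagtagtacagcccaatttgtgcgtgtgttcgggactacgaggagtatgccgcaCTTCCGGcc
Atp5b: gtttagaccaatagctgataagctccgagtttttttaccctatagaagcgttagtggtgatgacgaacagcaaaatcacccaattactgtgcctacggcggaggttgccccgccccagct
Uqcrc1: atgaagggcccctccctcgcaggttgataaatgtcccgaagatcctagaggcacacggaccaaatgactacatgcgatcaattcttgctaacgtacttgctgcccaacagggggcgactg

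Other mitochondrial genes were read from lists for the *Acta2-tdT* comparison on the scaled values. All 6 tested ADP/ATP and phosphate carriers, which exchange the substrate and product of complex V across the membrane, rose, with a median log2 difference of 1.23. Of 17 enzymes of the TCA cycle, which supplies NADH and succinate, 8 rose and none fell. Of 77 mitochondrial ribosomal proteins 23 rose and 2 fell, and of 79 cytosolic ribosomal proteins 43 rose and none fell, with a median of 0.82. Assembly factors of complex I gave 3 rises and 1 fall of 12, and those of complexes II to V 5 rises and 3 falls of 25. Of 10 tested subunits encoded on mitochondrial DNA 2 rose, with a median of 0.30. Of 13 fatty acid oxidation genes 4 rose and none fell, and of 10 regulators of mitochondrial biogenesis 4 rose and 1 fell. All of these counts stand beside the 24.5% of all tested genes that were called higher and the 32.5% called lower.

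Markers of other cell types moved in the same comparison, here given on the scaled values. Macrophage genes rose in 7 of 10 tested and fell in none, and the sum of the 12 genes listed was 102 to 367 scaled FPKM with saline and 380 to 1233 with bleomycin. Neutrophil genes fell in 4 of 5 tested, from a sum of 1019 to 1550 over 6 genes to 135 to 911. Fibroblast genes rose in 8 of 8 tested, from a sum of 29.4 to 39.1 over 9 genes to 245 to 379, and pericyte genes fell in 3 of 6 and rose in 1. Of 9 smooth muscle genes 2 rose and 3 fell, and of 5 tested endothelial genes 3 fell. Cardiac muscle genes, from a tissue rich in these subunits, fell in 1 of 2 tested, and their 7 genes listed summed to 46.9 to 103 in saline mice against 6.70 to 25.6 in bleomycin mice. As deposited none of these lists had a fall, with rises in 5 of 5 neutrophil, 5 of 5 endothelial, 4 of 6 pericyte, 7 of 9 smooth muscle, 1 of 2 cardiac muscle, 10 of 10 macrophage and 8 of 8 fibroblast genes. The part of these lists in the changes of the members was not tested.

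The second comparison set *Acta2-tdT* against *Pdgfra-tdT* cells after bleomycin. As deposited, limma called 77 of the 78 members tested in favour of *Acta2-tdT* cells, against 71% of all 11995 tested genes, and *Cox7b2* lower in them, against 8.61%. The median log2 difference of 3.35 over the members stood beside 1.81 over all tested genes, and it was 2.60 without *Pdgfra-tdT* mouse 8. On the scaled values 5 members were higher, against 17.2% of all tested genes, and 1 was lower, against 17.5%, so that the share of members called was below the background. Over the members the median log2 difference was 0.82, beside 0.17 over all tested genes, with 75 of 78 members above 0, and it was 0.33 without *Pdgfra-tdT* mouse 8. The 5 were *Uqcrc1* with a log2 difference of 1.76, *Atp5g1* with 1.73, *Ndufv1* with 1.68, *Ndufa11*, an accessory subunit of the membrane arm, with 1.25, and *Sdha* with 1.05, at adjusted p-values of 0.0293 to 0.0475 (limma). *Uqcrc1* was at 19.9 to 26.3 in *Acta2-tdT* mice and at 12.8, 12.2, 4.68 and 1.54 in *Pdgfra-tdT* mice, and *Atp5g1* at 17.0 to 23.9 against 11.6, 4.08, 7.47 and 2.18. In both genes the *Pdgfra-tdT* mouse that stood apart, mouse 8, was lowest. *Atp5b* had a difference of 1.66 but an adjusted p of 0.0892, with *Pdgfra-tdT* mice at 40.1, 23.9, 16.3 and 3.98.

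*Cox7b2* was the member lower in *Acta2-tdT* cells after bleomycin. It was at 7.64, 1.26, 5.90 and 5.63 scaled FPKM in the *Pdgfra-tdT* mice and at most 0.0824 in the *Acta2-tdT* mice, a log2 difference of -2.39 ± 0.40 (SE, adjusted p = 0.00346). It passed the filter only through the *Pdgfra-tdT* mice, where it was high. *Cox7b2* made up 45.5% ± 26.6 (SD, n = 4) of *Cox7b* and *Cox7b2* in the *Pdgfra-tdT* mice, and 35.1% ± 20.5 (SD, n = 3) without mouse 8. The number of calls moved with the mice. Without *Pdgfra-tdT* mouse 5 the members called were 21, all higher, without mouse 6 they were 2, without mouse 8 they were 6, and without mouse 7 or any of the 4 *Acta2-tdT* mice they were 1. Of all tested genes 52.4% were called in either direction without mouse 5, 26.8% without mouse 6, 29.3% without mouse 8 and 18.7% to 27.7% in the fits with 1 member, so that the members stayed below the background in each. *Cox7b2* fell below the filter in the fits without a *Pdgfra-tdT* mouse. On the scaled values endothelial marker genes were lower in *Acta2-tdT* cells in 6 of 7 tested, while as deposited 0 of 7 were called. Smooth muscle genes were higher in 9 of 9, fibroblast genes in 7 of 8 with a median log2 difference of 3.23, neutrophil genes in 4 of 5 and cardiac muscle genes in 2 of 2 on the scaled values. As deposited these were 9 of 9, 8 of 8, 5 of 5 and 2 of 2, and their part in the result was not tested.

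The third comparison set the lines against each other after saline. No member of 75 tested was called on either scale, although 34 as deposited and 40 on the scaled values had an unadjusted p under 0.05, as had 13.7% and 15.5% of all tested genes. With sample weights 67 members were called on each scale, where 33.3% and 47.0% of all tested genes were called in either direction. Of all 8153 tested genes 2.72% were called higher and 0.184% lower as deposited, and 3.02% and 0.245% on the scaled values. The median log2 difference of the members was 1.53 as deposited, beside 0.17 over all tested genes, and 1.42 scaled, beside -0.01. *Cox6c*, an accessory subunit of complex IV, was at 41.1, 36.2, 52.0 and 38.0 scaled FPKM in *Acta2-tdT* mice and at 3.99, 3.19, 18.8 and 3.41 in *Pdgfra-tdT* mice. These groups did not overlap, with a log2 difference of 2.70 ± 0.61 (SE, adjusted p = 0.0513). *Ndufb9*, an accessory subunit of complex I, had a difference of 2.58 with *Pdgfra-tdT* mice at 4.76, 4.75, 41.7 and 5.70, and mouse 3 lay within the *Acta2-tdT* range of 34.6 to 77.1.

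The number of calls of this comparison moved when *Pdgfra-tdT* saline mouse 3 was left out. Without it, 66 of 74 members were called higher on the scaled values and 67 as deposited, where 40.4% and 29.1% of all tested genes were called in either direction. Without the other 3 *Pdgfra-tdT* saline mice, the libraries that stood apart, 2 members and 21.8% of all tested genes were called on the scaled values, and the member median was 0.01. The fit without mouse 3 rests on these libraries alone, and the other fit leaves them out. Since these libraries were picked for their low members, nothing is drawn from either fit. The fit without these libraries also leaves mouse 3 alone in its group, assumed to vary like the *Acta2-tdT* mice. Mouse 3 also held the endothelial markers, with a sum of 565 scaled FPKM over 8 genes against 10.7 to 28.0 in mice 1, 2 and 4, among them *Cdh5*, the endothelial cadherin, at 13.3 against 0.169 to 0.460. *Sdhb* was at 11.2 in mouse 3 and at 0.524 to 0.880 in the other 3, and *Atp5b* at 36.6 against 3.23 to 4.97. Between the lines with saline, smooth muscle genes were called higher in *Acta2-tdT* cells in 9 of 9 tested, neutrophil genes in 3 of 4, pericyte genes in 2 of 3 and cardiac muscle genes in 2 of 2, on either scale. Neutrophil genes summed to 1019 to 1550 scaled FPKM in *Acta2-tdT* mice against 17.4 to 75.1 in *Pdgfra-tdT* mice, and cardiac muscle genes to 46.9 to 103 against 2.07 to 4.07. The part of these markers in the result was not tested.

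The fourth comparison asked how the members of *Pdgfra-tdT* cells changed with bleomycin. No member of 75 tested was called on either scale. An unadjusted p under 0.05 was found for 5 members on each, and for 4.29% of all tested genes as deposited and 4.55% scaled. With sample weights 20 members were called as deposited and 68 scaled, where 7.53% and 48.8% of all tested genes were called in either direction. The background was 0.0275% higher and 0.0962% lower of 7275 genes as deposited, and 0.0275% and 0.124% on the scaled values. The median log2 difference was 1.08 on the scaled values, beside -0.30 over all tested genes. It was -0.13 without the 4 libraries that stood apart, a fit that leaves a single saline mouse. *Ndufb2*, a membrane-arm subunit of complex I, was the member whose groups did not overlap upwards. It was at 3.98, 2.93, 8.45 and 2.03 with saline and at 39.7, 33.1, 16.9 and 8.73 with bleomycin, a log2 difference of 2.19 ± 0.79 (SE, adjusted p = 0.746). *Ndufab1* was the member apart downwards, at 3.51, 3.94, 4.02 and 3.61 with saline and at 1.88, 2.24, 1.70 and 2.74 with bleomycin, a difference of -0.61 (adjusted p = 0.746). Groups apart were found for 1.15% of all tested genes upwards and 1.17% downwards. All 6 tested macrophage genes had an unadjusted p under 0.05 and none was called, and *Lyz2*, a macrophage gene, was at 599 to 1454 scaled FPKM with bleomycin and at 20.7 to 121 with saline. Endothelial genes summed to 521, 159, 62.6 and 11.4 scaled FPKM in bleomycin mice 5 to 8, in the same order as the member shares, and all 6 tested had a difference above 0, with none called. The part of both lists in the result was not tested.

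The difference between the bleomycin effects of the lines was tested as an interaction over all 16 mice, and it shares its groups with the other comparisons, as they do among themselves. As deposited, 9 of 80 tested members had a larger effect in *Acta2-tdT* cells, against 36.6% of all 16605 tested genes, and 1 a smaller effect, against 3.2%. The 9 were *Ndufa11*, *Ndufs1* and *Ndufab1* of complex I, *Sdha*, *Uqcrc2*, *Uqcrfs1*, *Atp5g1*, *Atp5g2* and *Atp5sl*. Members called in either direction were 39 without the 4 libraries that stood apart, 37 without *Pdgfra-tdT* bleomycin mouse 5 and 6 without *Acta2-tdT* bleomycin mouse 8, where 45.2%, 56.8% and 25.1% of all tested genes were called in either direction. On the scaled values no member had a larger effect, against 1.39% of all tested genes, and 1 had a smaller effect, against 0.687%. That member was *Cox7b2*, with a log2 difference between the effects of -2.77 ± 0.63 (SE, adjusted p = 0.0331), which passed the test in 12 of 24 alternative settings. No *Acta2-tdT* bleomycin mouse reached 1 FPKM of it, so that it passed the filter through the other groups. The median over the members was -0.51, beside -0.22 over all tested genes, and it turned to 0.26 without the 4 libraries that stood apart, when 6 members and 26.4% of all tested genes were called. Of the 4 groups, the *Pdgfra-tdT* bleomycin mice had the widest spread in the summed share, with an SD of 1.48 percentage points.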

How the data were processed

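RNA from tdTomato+ cells of 16 mice (4 groups of 4) was sequenced. FPKM tables were made by the authors with TopHat2 2.1.1, Bowtie2 2.2.9 and Cufflinks 2.1.1 on GRCm38 and deposited per mouse, per the submitters' notes and the methods. They carry no counts, and depth was only estimated, by summing the squared ratio of FPKM to its error as given by the confidence bounds. Nothing in the labels says that mice within a group shared a batch or litter.

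FPKM were summed per gene identifier, and 15 genes with a Cufflinks status other than OK, no member among them, were left out. Scaled FPKM bring every mouse to a nuclear protein-coding sum of 51979. For each comparison, genes with at least 1 FPKM in at least 4 of its mice entered limma 3.58.1 (R 4.3.3) on log2(FPKM + 1), with the mice of the 2 groups compared, or all 16 for the interaction. Differences are on that scale, which understates the change of low genes. p-values were adjusted by Benjamini-Hochberg over all tested genes, with a threshold of 0.05. The fit was tested on simulated data made from the spread of the values as deposited. In the 4 comparisons it found 2 to 5 of 50 genes changed by a log2 difference of 1. Of 50 genes changed by 4 it found 27 to 48, and false calls numbered 3 to 12. Small changes were thus mostly missed. Two-sided tests were used throughout. Python 3.11.15, pandas 2.3.3, NumPy 2.4.6, SciPy 1.17.1 and matplotlib 3.10.9 were used.

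Named members were the 2 with the highest mean level in each complex, the 3 largest rises and falls per scaled comparison among called members without overlap, calls against the majority where at most 5, and fixed isoform sets, and other members are given as examples chosen after their values were seen. The members and lists were chosen with earlier results of these data known. Alternatives were other pseudocounts, filters, scalings, sample weights, a replicate block and leaving out each mouse. Promoter windows and lengths came from RefSeq and GENCODE annotation.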

Additional observations from a re-analysis of the deposited data

Results flagged for a closer look

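*Pdgfra-tdT* saline mouse 3 lay far from the other 3 mice of its group. Its members made up 2.86% of nuclear protein-coding FPKM, with 1.14% for complex I, 0.0382% for complex II, 0.688% for complex IV and 0.648% for complex V. In all, 24 sets of 4 mice were screened for a highest or lowest mouse whose gap to the nearest other mouse, divided by the range of the set, exceeded Dixon's 95% critical value for 4 values. Of these, 5 were picked out, all of this mouse. By that criterion's nominal level, chance picks out about 1 in 20 sets. The 5 share their libraries and their genes.

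The bleomycin effect on *Cox7b2* differed between the lines by -2.77 on the log2 scale in the scaled values (adjusted p = 0.0331, limma interaction), a call that held in 12 of 24 alternative settings. *Cox7b2* passed the filter of 1 FPKM only through the groups where it was higher, since no *Acta2-tdT* bleomycin mouse reached it. As deposited, 10 of 80 members, against 39.8% of all tested genes, differed between the lines in their bleomycin effect, 9 of them with the larger effect in *Acta2-tdT* cells, against 36.6% of all tested genes, so that the share of members called was below the background.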

How the results depend on the processing

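Counts of members called moved with sample weights, scaling and the mice included, and the percent in brackets is the share of all tested genes called in the same fit. Ranges over leaving out a mouse carry that share only where brackets follow. Without it, nothing about the members is read from them. Not every setting is listed. As deposited, the lines with saline gave 67 with sample weights (33.3%), 1 without the 4 *Pdgfra-tdT* libraries that stood apart (15.3%) and 0 to 67 when a mouse was left out. The lines with bleomycin gave 14 with quantile normalization (34.9%) and 73 to 77 without a mouse, *Acta2-tdT* bleomycin 76 to 78 without a mouse, and *Pdgfra-tdT* bleomycin 20 with weights (7.53%) and 0 without a mouse. The interaction gave 4 with a pseudocount of 0.1 (20.9%), 5 with a mean FPKM of at least 5 (28.8%), 44 with weights (64.2%), 1 with quantile normalization (9.61%), 39 without the 4 libraries (45.2%) and 6 without *Acta2-tdT* bleomycin mouse 8 (25.1%) to 37 without *Pdgfra-tdT* bleomycin mouse 5 (56.8%).

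On the scaled values the lines with saline gave 67 with weights (47.0%), 7 with all 16 mice in 1 fit (3.95%), 2 with the receptor background subtracted (4.01%), 2 without the 4 libraries (21.8%) and 0 to 66 without a mouse. The lines with bleomycin gave 3 with a pseudocount of 0.1 (31.0%), 1 with no filter (3.17%), 3 with a mean of at least 5 (27.7%), 22 with weights (49.1%), 2 without the top 100 genes in the sum (25.5%), 3 with a target sum of 1000000 (29.8%) and 1 to 21 without a mouse. *Acta2-tdT* bleomycin gave 3 with all 16 mice (39.6%), 11 without the top 100 genes (52.4%) and 22 to 30 without a mouse. *Pdgfra-tdT* bleomycin gave 68 with weights (48.8%). The interaction gave 0 with no filter (0.366%), with a mean of at least 5 (5.39%) and without the top 100 genes (1.02%), 20 with weights (14.1%), 6 without the 4 libraries (26.4%) and 0 to 1 without a mouse. Leaving out the 4 libraries was chosen after seeing the data, and it leaves 1 *Pdgfra-tdT* saline mouse, assumed to vary like the others.

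Without the top 100 genes the difference in summed share was 3.30 percentage points between the lines with saline and 0.197 in *Acta2-tdT* cells. Without a mouse it ran from 1.59 to 2.39 between the lines with saline, 0.798 to 1.96 between the lines with bleomycin, 0.744 to 1.12 in *Acta2-tdT* and 0.787 to 1.95 in *Pdgfra-tdT* cells. Without the 4 libraries the member median changed sign to -0.41 between the lines with saline as deposited, to -0.13 in *Pdgfra-tdT* cells scaled and to 0.26 for the interaction scaled. *Cox8c* between the lines with saline became 0.92 without the 4 libraries and ran from -0.59 to 0.14 without a mouse. In *Acta2-tdT* cells *Atp5k* became -0.26 without the top 100 genes, -0.0687 with the receptor background subtracted and -0.0578 to 0.36 without a mouse, *Ndufa5* became 0.14 and *Uqcr10* 0.30 with upper-quartile scaling, and *Uqcr10* ran from -0.18 to 0.0166 without a mouse. In the same comparison these 3 scalings moved the median of all genes to -0.15, 0.24 and 0.14. The cause of these changes was not tested.

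The replicate block gave 1 member between the lines with bleomycin, scaled (28.0%). Same-numbered mice correlated at -0.0776 to 0.157 with saline and at -0.266 to 0.00339 with bleomycin, so that the numbers did not pair the mice. The files give no counts, and with 4 mice a group a difference that missed the threshold is not shown to be absent.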
